A study of Sus scrofa with 60 samples.

Results

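The liver of the late fetus at 94 days post conceptionem (dpc) was compared with that of the newborn at 1 day post natum (dpn) in German Landrace pigs, on Affymetrix Porcine Genome arrays, on which several short oligonucleotides together form the probe-set that reads a transcript. The animals were chosen by the ontogenetic stage in their labels. They were 15 fetuses and 15 newborns, 30 of the 60 arrays of the series, and the values of all 23999 probe-sets other than Affymetrix controls were compared, out of 24123 on the array. Every animal of both groups was the offspring of a gilt that received the adequate protein (AP) diet in pregnancy, and the labels give no other treatment and no genetic change for either group. The fetuses were removed by Caesarean section in an experiment of their own, and the newborns were delivered after prostaglandin induction in a second experiment, so that stage, experiment and manner of collection cannot be told apart. Each stage drew on 8 litters, from which light and heavy sibs were picked, but the labels give neither litter, sex nor weight, and each animal was counted as independent. The other stages, 28 dpn with 14 animals and 188 dpn with 16, serve only to show where a newborn level lay later on.

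At birth the liver loses the supply of glucose, amino acids and hormones that arrives through the umbilical vein and receives milk instead, whose sugar, lactose, yields galactose. It also gradually ceases to be a site of blood formation, and hepatocytes take up tasks that the placenta and the mother had carried. The genes described here lie for the most part outside the best known hepatic programs: the side routes of sugar and sulfur metabolism, selenium, heme and hormone handling, chromatin, developmental signalling, transporters and the machinery of the cell.

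Levels are given as log2 of the deposited intensity plus 16, the changes as 1 dpn minus 94 dpc on the same scale, ± the standard error (SE), and rose or fell is written only where the adjusted p from limma was below 0.05. A gene is read by its brightest probe-set, and levels of different genes are not comparable. Background was set by 17 control probe-sets that match no pig transcript, the brightest of which averaged 5.86 at 94 dpc and 6.29 at 1 dpn, and a change against a stage near that level is a lower limit. The median intensity of an array averaged 169.76 ± 5.62 before birth and 149.11 ± 9.75 after it (SD, n = 15 each). The log2 ratio of 3′ to 5′ signal of the GAPDH control was 0.61 lower in the newborns without overlap (permutation test, p = 2e-05, the smallest that 100000 permutations give here; adjusted p = 4e-05), and that of actin 0.53 lower with overlap (permutation test, adjusted p = 0.00022). Of the markers listed for other cells, 7 of 7 erythroid, 7 of 7 neutrophil granule and 4 of 4 megakaryocyte genes fell. Of 8 stellate and mesenchymal markers 3 fell and 0 rose, of 10 endothelial ones 3 fell and 2 rose. For lymphocytes 1 of 7 fell and 0 rose, for cholangiocytes 1 of 8 fell and 1 rose. Of 9 skeletal muscle markers 3 fell and 2 rose, and their summed level was 12.11 ± 0.70 before birth and 9.20 ± 0.61 after it (SD, n = 15 each). Macrophage markers are given below. The summed level of the erythroid list ran from 13.31 to 15.46 before birth and from 10.48 to 12.34 after it. The 11 hepatocyte markers summed to 19.17 ± 0.25 and 19.15 ± 0.20 (SD, n = 15 each), but such bright signals can be compressed, and the sum is no measure of a constant hepatocyte share. In whole tissue, fewer cells of a type and less RNA per cell cannot be told apart.

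Of all probe-sets, 3431 rose (14.3%) and 6127 fell (25.5%) from 94 dpc to 1 dpn. Probe-sets that rose made up 35.9% of the changed ones, 47.5% after quantile normalization and 56.2% after centring each array on its median, since that centring moved the median change of all probe-sets from -0.09 to 0.08. Among the 6765 named genes 1572 rose (23.2%) and 1926 fell (28.5%), with a median change of -0.05, and each family below is read against these shares. After median centring 5213 of all probe-sets rose and 4062 fell, and family counts after that centring are to be read beside these. Changes of at least 2-fold were found for 387 genes that rose (5.72%) and 364 that fell (5.38%), and for 795 (3.31%) and 1244 (5.18%) of all probe-sets. In 368 genes every newborn lay above every fetus (5.44%), and in 301 every newborn lay below (4.45%); over probe-sets these were 571 (2.38%) and 710 (2.96%). The 13732 probe-sets without a gene name had 1194 that rose (8.7%) and 3532 that fell (25.7%).

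Families differed in the share of members that changed, as the plot of counts for a selection of them shows. At one end were the galactose and hexosamine enzymes, export pumps and proton pump subunits, most of whose changed members rose. At the other were the DNA methylation and Polycomb proteins, of which none rose. Small GTPases and Golgi glycan enzymes had members on both sides, with no such lean.

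**Figure D1:**
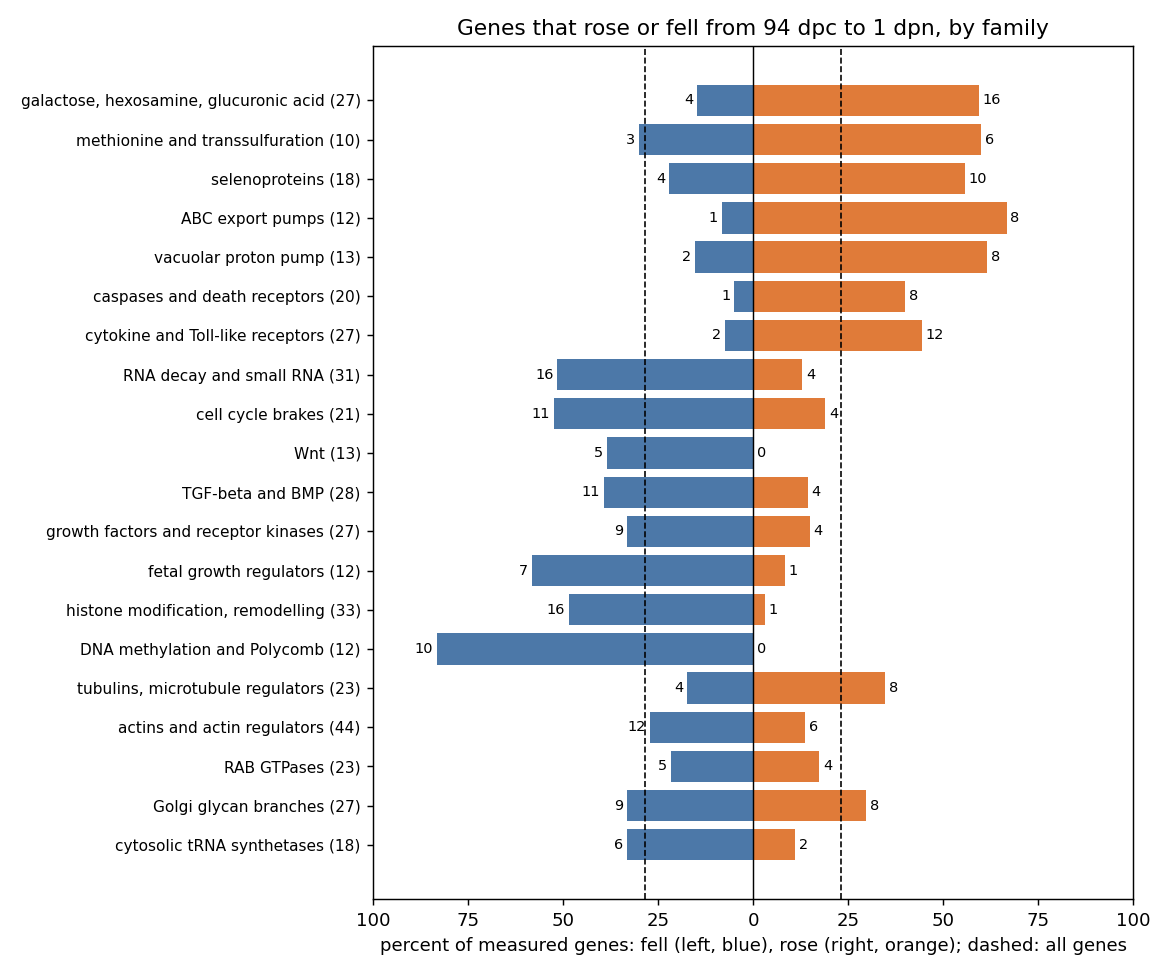
The plot shows a selection of the gene families, not all of them. For each, the bars give the percent of measured genes that fell (left, blue) or rose (right, orange) from 94 dpc to 1 dpn. The adjusted p was below 0.05, the count stands at the end of each bar and the number measured after each name. The dashed lines mark the shares over all 6765 genes, 28.5% that fell and 23.2% that rose, and the DNA methylation and Polycomb row reaches 10 of 12 on the left with 0 on the right.

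Large rises outside the well known liver genes included secreted, surface and nuclear proteins. AZGP1 encodes zinc alpha-2-glycoprotein, a plasma protein linked to fat mobilization, and its level ran from 8.10 to 9.31 in the fetuses with a median of 8.72, and from 10.47 to 13.89 in the newborns with a median of 12.80. The rise was 4.03 ± 0.24 (adjusted p = 6.75e-15), or 16.3-fold, and a single newborn at 10.47 stood apart below the other newborns yet above all fetuses. HOPX, a small homeodomain protein that binds no DNA itself, was at 6.46 to 7.96 before birth (median 7.40) against 9.63 to 11.13 after it (median 10.48), a rise of 3.16 ± 0.17 (adjusted p = 5.26e-16). Levels of ENPEP, the aminopeptidase that degrades angiotensin II, ran from 5.24 to 7.66 in the fetuses with a median of 6.59, and from 8.34 to 11.38 in the newborns with a median of 9.85. It rose by 3.19 ± 0.28 (adjusted p = 6.62e-11) and was back at 6.91 ± 0.80 (SD, n = 14) at 28 dpn and 5.84 ± 0.51 (SD, n = 16) at 188 dpn, so the newborn value was the highest of the 4 stages.

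Several other genes had no overlap between stages and narrow spread. HSD17B14, a 17-beta-hydroxysteroid dehydrogenase, lay at 6.67 to 8.14 before birth (median 7.51) against 10.03 to 10.78 after it (median 10.43) and rose by 2.95 ± 0.13 (adjusted p = 5.09e-18). The scaffold protein HOMER2 was at 7.47 to 8.85 before birth (median 8.28) against 10.57 to 11.42 after it (median 10.99), a rise of 2.81 ± 0.13 (adjusted p = 1.96e-17). For SEC14L2, a lipid-binding protein of the tocopherol and squalene pathways, the levels were 9.14 to 10.65 before birth (median 9.76) against 11.77 to 12.49 after it (median 12.11), and it rose by 2.27 ± 0.12 (adjusted p = 3.44e-16). All 15 newborns exceeded all 15 fetuses in each of these. Signalling and defence proteins among the large rises included TRAF3IP2, an adaptor of interleukin-17 receptors (2.74 ± 0.27, adjusted p = 7.36e-10), the lectin MBL2 (2.67 ± 0.30, adjusted p = 1.06e-08), the complement proteases C2 (3.11 ± 0.21, adjusted p = 1.71e-13) and C1R (2.35 ± 0.17, adjusted p = 1.08e-12), and PSMB10, a subunit of the immunoproteasome (2.11 ± 0.13, adjusted p = 3.38e-14). CCL19, a chemokine for lymphocytes, was near background before birth and rose by at least 2.57 ± 0.25 (adjusted p = 5.03e-10).

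Several metabolic enzymes were also among the 40 largest rises without overlap. FLAD1, which makes flavin adenine dinucleotide, ran from 7.88 to 8.81 in the fetuses with a median of 8.25, and from 10.04 to 11.12 in the newborns with a median of 10.43, and rose by 2.17 ± 0.10 (adjusted p = 3.29e-17) on all 3 of its probe-sets. The flavin monooxygenase FMO5 rose by 2.41 ± 0.27 and the peroxisomal D-amino acid oxidase DAO by 2.12 ± 0.19. Of the 5 genes in the list that holds flavin monooxygenases, epoxide hydrolases and glucuronosyltransferases, 2 rose and 3 fell. Further rises were of GLRX, glutaredoxin (2.07 ± 0.10, adjusted p = 6.41e-17), GPD1, the cytosolic glycerol-3-phosphate dehydrogenase (2.21 ± 0.15, adjusted p = 1.42e-13), DHRS4, a carbonyl and retinal reductase (2.22 ± 0.13, adjusted p = 8.98e-15), and CHCHD10 of the mitochondrial intermembrane space (2.15 ± 0.16, adjusted p = 1.19e-12). DHRS4 and NUCB2, the precursor of nesfatin, had higher means at 1 dpn than at any other stage: NUCB2 rose by 2.31 ± 0.17 (adjusted p = 1.07e-12) and was at 9.22 ± 0.52 (SD, n = 14) by 28 dpn, and DHRS4 was then at 10.69 ± 0.47 (SD, n = 14).

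**Figure D2:**
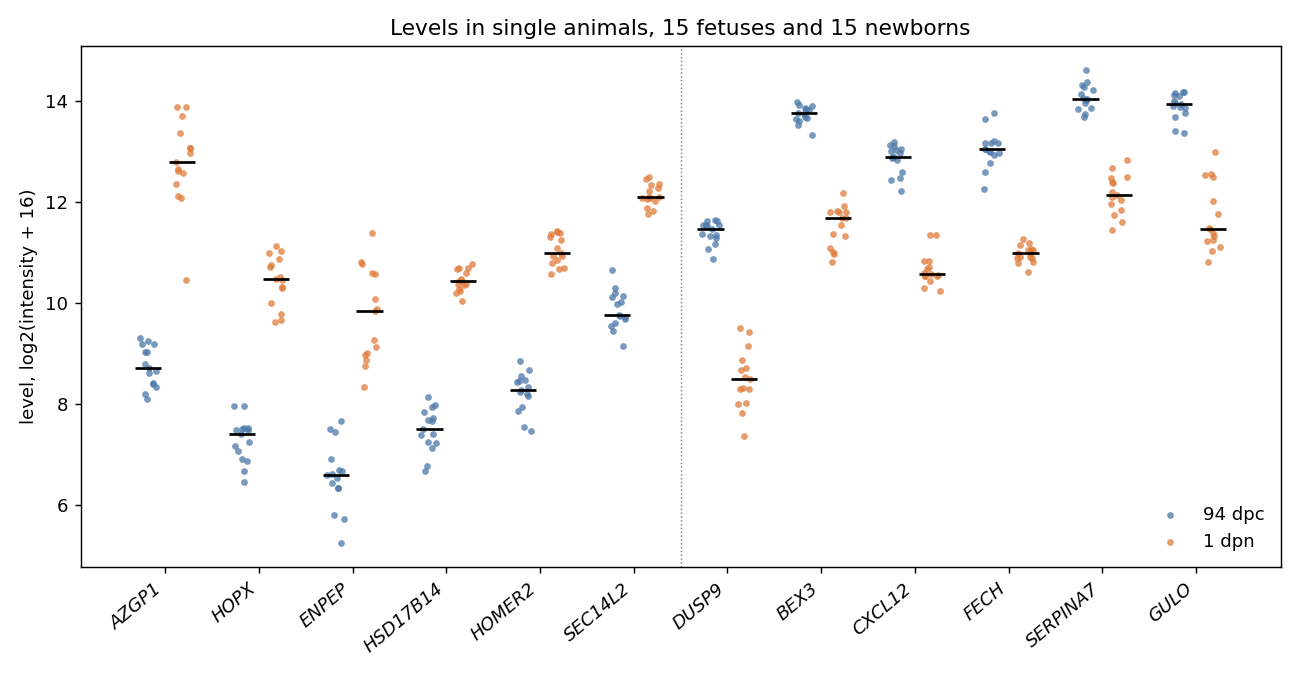
Each point is 1 animal, with the level as log2(intensity + 16) on the vertical axis, fetuses at 94 dpc in blue, newborns at 1 dpn in orange and the median of each stage as a black bar. The 6 genes on the left rose and the 6 on the right fell, and in none of the 12 do the 2 stages overlap; sideways scatter only separates the points.

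Large falls outside the well known genes included a phosphatase, a water channel and a small signalling protein. DUSP9, a phosphatase that switches off mitogen-activated kinases, ran from 10.88 to 11.64 in the fetuses with a median of 11.46, and from 7.36 to 9.50 in the newborns with a median of 8.49. It fell by 2.90 ± 0.16 (adjusted p = 1.55e-15) and went on to 6.95 ± 0.77 (SD, n = 16) at 188 dpn. AQP1, the water channel of red cells, endothelium and bile ducts, was at 10.40 to 12.53 before birth (median 11.74) against 7.82 to 9.92 after it (median 8.83) and fell by 2.93 ± 0.17 (adjusted p = 7.14e-15). BEX3, a brain-expressed X-linked protein of signalling and apoptosis, ran from 13.33 to 13.98 in the fetuses with a median of 13.76, and from 10.81 to 12.18 in the newborns with a median of 11.68, and fell by 2.22 ± 0.12 (adjusted p = 5.26e-16) on both probe-sets. No newborn reached the lowest fetus in any of the 3.

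CXCL12, the chemokine that holds blood stem cells in their niche, was at 12.22 to 13.19 before birth (median 12.90) against 10.25 to 11.35 after it (median 10.57). It fell by 2.18 ± 0.12 (adjusted p = 5.39e-16) and stood higher again at 28 dpn, at 11.97 ± 0.41 (SD, n = 14). The adhesion protein VCAM1 fell by 1.65 ± 0.18 (adjusted p = 3.39e-09) in the same animals. MLLT3, a transcription elongation cofactor of blood stem cells, fell by 2.71 ± 0.21 (adjusted p = 2.13e-12) on 1 of 2 probe-sets, and DYRK3, a kinase of erythroid cells, fell by 2.00 ± 0.14 (adjusted p = 4.23e-13). MID1IP1, which activates acetyl-CoA carboxylase, fell by 1.93 ± 0.15 (adjusted p = 5.6e-12) and ACSS2, which makes acetyl-CoA from acetate, fell by 1.74 ± 0.16 (adjusted p = 8.34e-11). Outside metabolism, THBS1, a matrix protein that activates TGF-beta, fell by 2.03 ± 0.21 (adjusted p = 1.14e-09) on 2 of 5 probe-sets. The transcription factor ETV5 fell by 1.70 ± 0.15 (adjusted p = 9.75e-11), and HRG, the histidine-rich plasma glycoprotein, fell by 1.70 ± 0.22 (adjusted p = 1.39e-07). Beside these falls the erythroid, neutrophil and megakaryocyte markers fell as given above, and their part in the falls of genes that blood cells also express was not tested.

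A gene was called switched on when its fetal mean lay within background and every newborn lay above background, and switched off in the opposite case, so that single animals of both stages may still overlap. The label asks for no test, and the background level was higher at 1 dpn (6.29) than at 94 dpc (5.86), so that off was easier to meet than on. It held for 8 genes switched on (0.118%), all of which passed the test, and for 57 switched off (0.843%), of which 52 passed. Among the former were EGFLAM, a matrix protein, at 4.40 to 6.62 before birth (median 5.26) against 6.69 to 10.13 after it (median 8.92), and PARM1, a membrane mucin, at 4.65 to 7.05 before birth (median 5.16) against 7.64 to 9.71 after it (median 8.39). Their rises were at least 3.74 ± 0.27 (adjusted p = 1.1e-12) and 3.03 ± 0.25 (adjusted p = 1.8e-11), and both stayed up, with means of 9.47 ± 0.35 and 8.82 ± 0.45 (SD, n = 16) at 188 dpn. Switched off were SLC2A5, the fructose transporter GLUT5, at 6.88 to 11.01 before birth (median 9.71) against 4.40 to 7.20 after it (median 6.20) with a change of at least -3.50 ± 0.32 (adjusted p = 1.65e-10), and PHACTR3, a regulator of protein phosphatase 1, which fell by 2.94 ± 0.25 (adjusted p = 3.1e-11), a lower limit. EPDR1, a lipid-binding ependymin relative, fell by 2.58 ± 0.23 (adjusted p = 7.07e-11), a lower limit, and CRABP2, which carries retinoic acid to its receptor, fell by 2.26 ± 0.27 (adjusted p = 4.17e-08), a lower limit. BCL11A, the repressor of fetal globin genes in human red cells, fell by 1.75 ± 0.25 (adjusted p = 8.72e-07), a lower limit, and GDF11, a growth factor of the TGF-beta family, fell by 1.73 ± 0.23 (adjusted p = 1.65e-07), a lower limit.

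Among sugar routes other than glycolysis, those of galactose, hexosamine, mannose and glucuronic acid mostly rose. Of 5 measured pentose phosphate enzymes 2 rose and 1 fell, with a median change of -0.02. Of 27 measured enzymes of galactose, hexosamine, mannose and glucuronic acid 16 rose and 4 fell, with a median change of 0.45. The Leloir route from galactose to glucose-1-phosphate rose at 3 steps: the mutarotase GALM by 1.00 ± 0.10 (adjusted p = 1.98e-09), the kinase GALK1 by 1.03 ± 0.09 (adjusted p = 1.3e-10) and the uridylyltransferase GALT by 2.10 ± 0.09 (adjusted p = 1.42e-17). GALT ran from 8.90 to 9.68 in the fetuses with a median of 9.41, and from 10.90 to 11.81 in the newborns with a median of 11.49, with no overlap and the same direction on 3 of 3 probe-sets. Later means were 10.34 ± 0.25 (SD, n = 14) at 28 dpn and 9.88 ± 0.30 (SD, n = 16) at 188 dpn, below the newborn mean. Enzymes that make activated mannose for glycoproteins, of which all but GMPPB were chosen after their values were seen, also rose: MPI by 0.45 ± 0.10, PMM1 by 0.68 ± 0.15, PMM2 by 0.39 ± 0.11, GMPPA by 0.64 ± 0.14 and GMPPB by 1.64 ± 0.22. GFPT1, the entry enzyme of the hexosamine route and likewise chosen, rose by 0.77 ± 0.15 (adjusted p = 5.79e-05) and MIOX, which opens inositol to glucuronic acid, by 1.56 ± 0.18 (adjusted p = 9.99e-09).

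The largest fall of the family was that of GULO, the last enzyme of vitamin C synthesis, which pigs possess. It ran from 13.36 to 14.18 in the fetuses with a median of 13.94, and from 10.82 to 13.00 in the newborns with a median of 11.46, and fell by 2.20 ± 0.18 (adjusted p = 1.45e-11), with means of 13.10 ± 0.68 (SD, n = 14) and 12.02 ± 0.42 (SD, n = 16) at the later stages. All newborns were below all fetuses, although 1 newborn came close to the lowest fetus. PGM2, a phosphopentomutase, fell by 1.32 ± 0.15 (adjusted p = 6.65e-09). UGP2, which makes UDP-glucose, was at 13.39 to 13.82 before birth (median 13.65) against 12.90 to 14.09 after it (median 13.53), and its change of -0.08 ± 0.12 (adjusted p = 0.631) did not pass, although its other probe-set fell.

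Sulfur amino acid metabolism was divided by step. Of 10 enzymes 6 rose and 3 fell, with a median change of 0.33. CTH, which releases cysteine from cystathionine, ran from 10.97 to 11.98 in the fetuses with a median of 11.59, and from 12.23 to 14.52 in the newborns with a median of 13.74, and rose by 1.96 ± 0.20 (adjusted p = 1.02e-09). BHMT, which remethylates homocysteine from betaine, was at 11.45 to 12.69 before birth (median 12.06) against 13.03 to 14.75 after it (median 14.09) and rose by 1.93 ± 0.16 (adjusted p = 1.31e-11), and CDO1, which oxidizes cysteine toward taurine, rose by 1.72 ± 0.18 (adjusted p = 2.52e-09). None of these overlapped. PEMT, the liver enzyme that spends methyl groups on phosphatidylcholine, went the other way: it was at 14.03 to 15.00 before birth (median 14.64) against 12.87 to 13.88 after it (median 13.37) and fell by 1.20 ± 0.11 (adjusted p = 2e-10), reaching 11.45 ± 0.28 (SD, n = 16) at 188 dpn. Of the methionine adenosyltransferases the adult hepatic MAT1A rose by 0.27 ± 0.11 (adjusted p = 0.0445) and MAT2A of proliferating cells fell by 0.78 ± 0.23 (adjusted p = 0.00639). The MAT1A rise was small and lost its call after quantile normalization (adjusted p = 0.448, limma) or without the least correlated array of each stage (adjusted p = 0.0821, limma). With the actin ratio as a covariate neither MAT1A (adjusted p = 0.0945, limma) nor MAT2A (adjusted p = 0.0865, limma) passed.

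In nucleotide routes 10 of 27 genes rose and 10 fell. Among 11 genes of purine synthesis 3 rose and 6 fell, with a median change of -0.27. Among 5 of purine salvage and breakdown 4 rose and 1 fell. PPAT, the committed step of purine synthesis, rose by 1.22 ± 0.19 (adjusted p = 4.54e-06), while IMPDH2, the entry to guanine nucleotides, ran from 11.37 to 11.85 in the fetuses with a median of 11.68, and from 9.93 to 10.84 in the newborns with a median of 10.54 and fell by 1.23 ± 0.10 (adjusted p = 9.49e-12), and GMPS after it fell by 0.50 ± 0.07 (adjusted p = 3.16e-07). HPRT1, which salvages hypoxanthine and guanine, rose by 1.10 ± 0.10 (adjusted p = 2.11e-10) and PNP, which releases them, fell by 1.01 ± 0.12 (adjusted p = 1.84e-08). UOX, the urate oxidase that pigs retain, was near background before birth and rose by at least 1.72 ± 0.33 (adjusted p = 8.78e-05). UPB1, the last step of pyrimidine breakdown, was at 8.29 to 10.56 before birth (median 9.69) against 10.92 to 12.43 after it (median 12.02) and rose by 2.42 ± 0.23 (adjusted p = 3.77e-10), and its level went on to 13.78 ± 0.30 (SD, n = 16) at 188 dpn. Of 9 polyamine genes SRM, spermidine synthase, alone rose (1.14 ± 0.14, adjusted p = 4.73e-08), and AZIN1, which protects ornithine decarboxylase, and the spermine oxidase SMOX fell without overlap (-1.41 ± 0.15 and -1.27 ± 0.12). For ODC1, ornithine decarboxylase itself, the change was 0.08 ± 0.15 (adjusted p = 0.731).

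**Figure D3:**
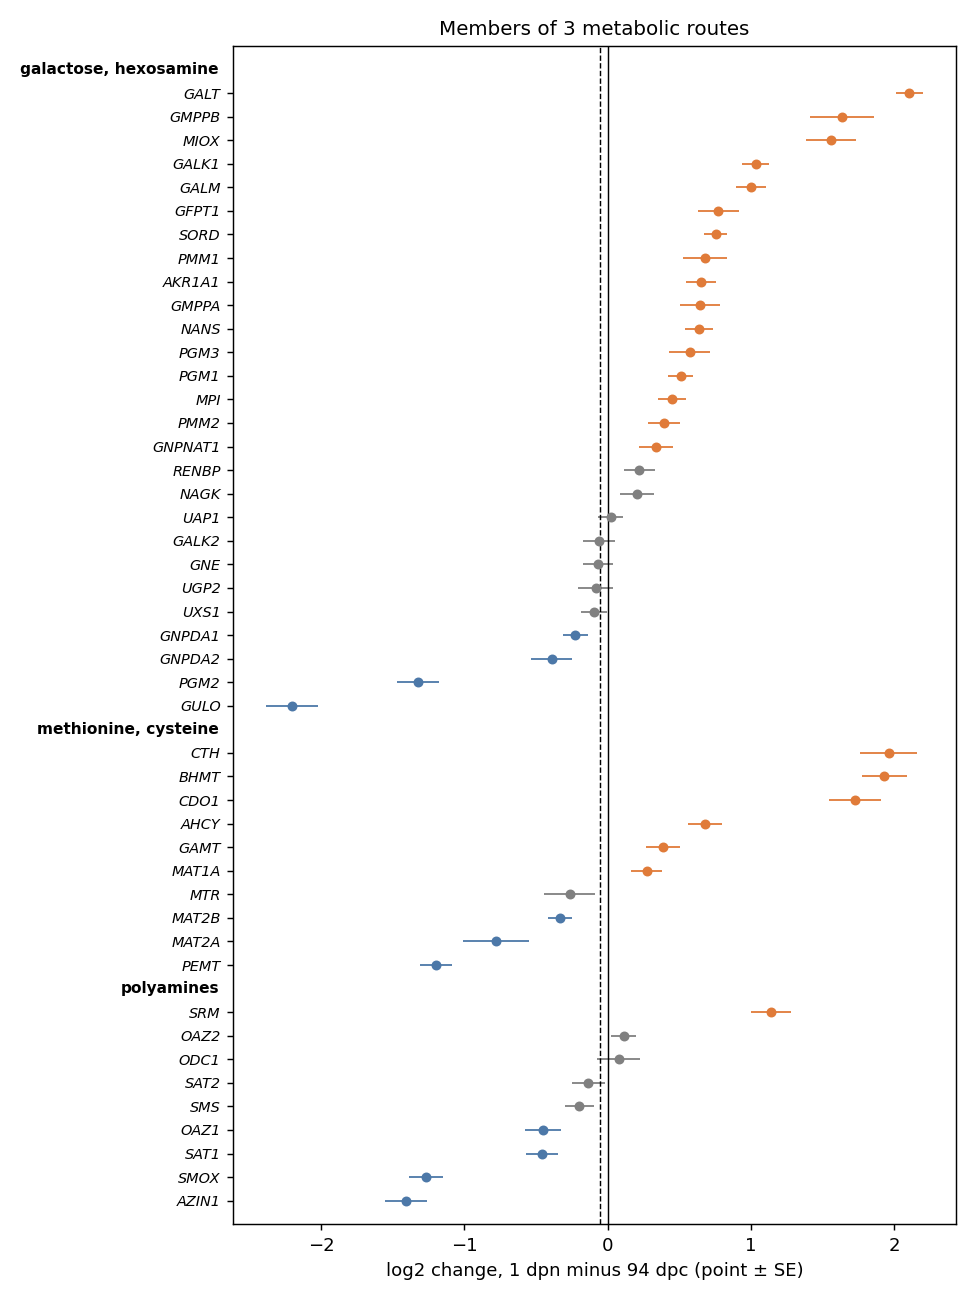
Points give the log2 change from 94 dpc to 1 dpn and bars its SE for every measured member of 3 routes, orange where a gene rose, blue where it fell and grey where the adjusted p was 0.05 or more, with a dashed line at the median of all genes. Galactose and mannose enzymes gather on the right with GULO alone at the far left, and CTH, BHMT and CDO1 stand opposite PEMT.

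Of 18 selenoprotein and selenium genes 10 rose and 4 fell, with a median change of 0.35. DIO1, the deiodinase that makes active thyroid hormone, ran from 8.73 to 10.04 in the fetuses with a median of 9.82, and from 11.31 to 12.34 in the newborns with a median of 11.69, and rose by 2.05 ± 0.12 (adjusted p = 6.31e-15). SELENOM, an endoplasmic reticulum selenoprotein, was at 6.87 to 8.67 before birth (median 7.98) against 9.06 to 10.42 after it (median 9.90) and rose by 2.02 ± 0.17 (adjusted p = 2.1e-11). MSRB1, a methionine sulfoxide reductase, rose by 1.13 ± 0.10 (adjusted p = 1.1e-10) and GPX3, the plasma glutathione peroxidase, by 1.51 ± 0.24 (adjusted p = 3.84e-06). SELENOP, by which the liver sends selenium to other tissues, did the opposite. It ran from 15.16 to 15.92 in the fetuses with a median of 15.40, and from 14.47 to 15.15 in the newborns with a median of 14.71, and fell by 0.72 ± 0.09 (adjusted p = 2.79e-08) with no overlap.

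Falls were found for SERPINA7, SERPINA6, TTR and AFM, which encode plasma carriers. These genes were not a list of their own, and HPX, which binds heme in plasma, rose as given below. Of the 11 hepatocyte markers, TTR among them, 1 fell, 1 rose and 9 did not pass. SERPINA7, thyroxine-binding globulin, was at 13.68 to 14.62 before birth (median 14.04) against 11.45 to 12.84 after it (median 12.14), a change of -1.92 ± 0.12 (adjusted p = 7.07e-14). SERPINA6, the carrier of cortisol, ran from 12.78 to 13.90 in the fetuses with a median of 13.37, and from 9.70 to 12.60 in the newborns with a median of 11.41, and fell by 1.91 ± 0.21 (adjusted p = 3.72e-09). Transthyretin, TTR, was at 15.37 to 16.29 before birth (median 15.68) against 14.75 to 15.60 after it (median 15.22) and fell by 0.54 ± 0.10 (adjusted p = 7.19e-05), although compression of so bright a signal was not tested. AFM, the vitamin E carrier afamin, fell by 0.89 ± 0.12 (adjusted p = 3.99e-07). SERPINA6 had regained 14.05 ± 0.38 (SD, n = 16) at 188 dpn, above its fetal mean of 13.32 ± 0.36 (SD, n = 15), whereas SERPINA7 remained at 12.29 ± 0.43 (SD, n = 16). Enzymes of sex steroids moved apart: as HSD17B14 rose, HSD17B2, which inactivates estradiol and testosterone, fell by 1.66 ± 0.13 (adjusted p = 6.98e-12) without overlap. The transcription factor KLF9 rose by 1.40 ± 0.22 (adjusted p = 3.92e-06), and FKBP5, a cochaperone of steroid receptors, rose by 0.85 ± 0.16 (adjusted p = 3.72e-05). In the list of KLF, GATA, SOX, FOX and HOX factors 2 of 22 rose and 8 fell. Among genes of glucagon, cAMP and stress hormone signalling 7 of 23 rose and 5 fell, with a median change of -0.05.

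Genes of heme synthesis moved in both directions. The first step has a housekeeping enzyme, ALAS1, and an erythroid one, ALAS2. ALAS1 was at 9.85 to 10.67 before birth (median 10.18) against 11.29 to 13.75 after it (median 12.47) and rose by 2.26 ± 0.20 (adjusted p = 7.44e-11), on 3 of 3 probe-sets. ALAS2, itself an erythroid marker in the list above, ran from 11.59 to 13.54 in the fetuses with a median of 12.87, and from 9.28 to 11.59 in the newborns with a median of 10.54, and fell by 2.41 ± 0.21 (adjusted p = 5.3e-11). FECH, the last step, which inserts the iron, fell by 2.08 ± 0.11 (adjusted p = 5.26e-16), and SLC25A37, the mitoferrin that brings iron into erythroid mitochondria, fell by 2.20 ± 0.14 (adjusted p = 2.88e-14). No newborn overlapped any fetus in these 4. The transferrin receptor TFRC fell by 2.20 ± 0.46 (adjusted p = 0.000232), with newborns spread from 4.58 to 10.22. HPX, which binds free heme in plasma, was at 13.24 to 14.24 before birth (median 13.67) against 14.77 to 15.41 after it (median 15.10) and rose by 1.39 ± 0.09 (adjusted p = 7.93e-14). Iron and copper genes as a whole counted 10 that rose and 3 that fell of 18. BPGM, the red cell enzyme that makes bisphosphoglycerate, fell by 1.73 ± 0.15 (adjusted p = 7.77e-11). The erythroid markers fell in the same animals as given above, and their part in these falls was not tested.

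**Figure D4:**
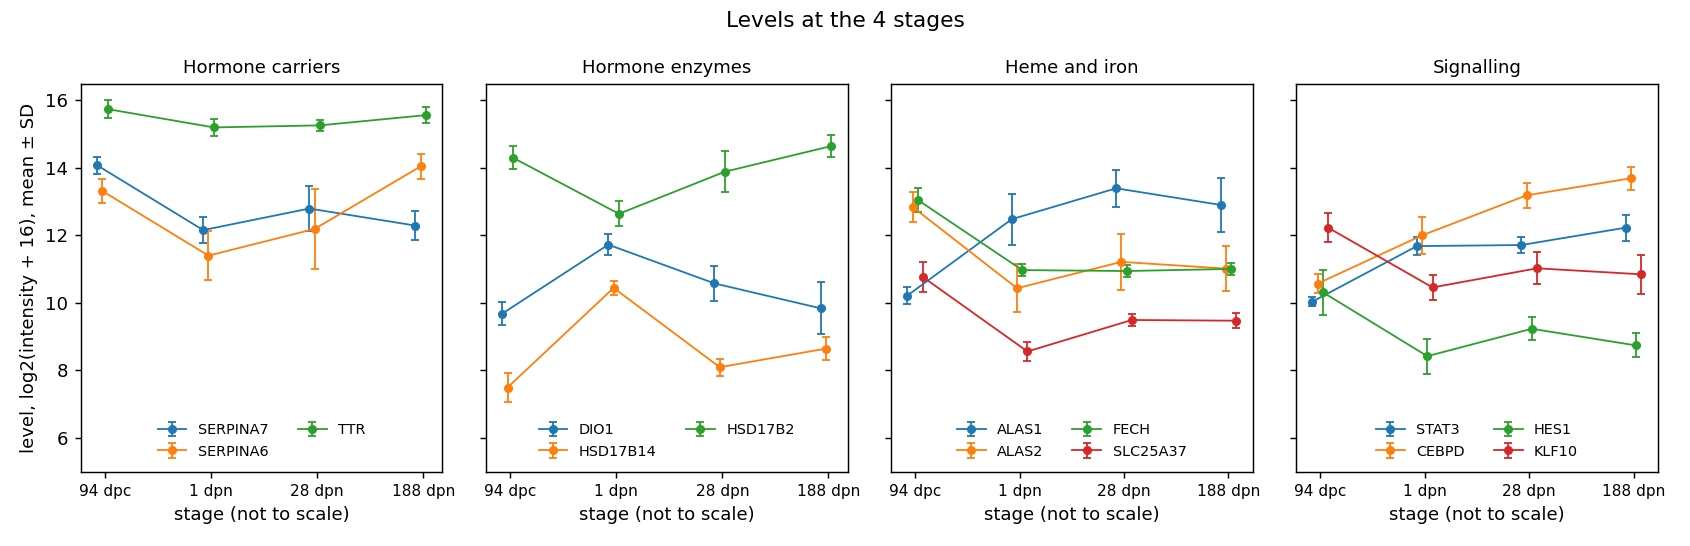
Points are stage means of log2(intensity + 16) and bars the SD between animals (n = 15, 15, 14 and 16), joined in order of age on an axis that is not to scale; heights of different genes are not comparable. From 94 dpc to 1 dpn SERPINA7, SERPINA6 and TTR fell, DIO1 and HSD17B14 rose to their highest stage mean, ALAS1 rose as ALAS2, FECH and SLC25A37 fell, and STAT3 and CEBPD rose as HES1 and KLF10 fell.

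Chromatin genes mostly fell. Of 56 measured 32 fell and 3 rose, with a median change of -0.35 against -0.05 over all genes, and after centring each array on its median 25 fell and 6 rose. None of the 12 DNA methylation and Polycomb genes rose and 10 fell. DNMT1, the maintenance DNA methyltransferase, ran from 10.23 to 11.06 in the fetuses with a median of 10.66, and from 8.80 to 9.97 in the newborns with a median of 9.49, and fell by 1.19 ± 0.11 (adjusted p = 3.29e-10) without overlap, although 3 other probe-sets of the gene did not pass. EZH2, the Polycomb histone methyltransferase, was at 7.95 to 9.80 before birth (median 8.88) against 4.94 to 8.97 after it (median 8.03) and fell by 1.11 ± 0.27 (adjusted p = 0.0011), and its partners EED and RBBP7 fell (-0.63 ± 0.09 and -0.60 ± 0.08). For DNMT3B, which sets new methylation, the change was -0.12 ± 0.21 (adjusted p = 0.68).

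Of 33 histone-modifying and remodelling genes 16 fell and 1 rose. ANP32E, the chaperone that removes histone H2A.Z, ran from 8.54 to 10.13 in the fetuses with a median of 9.30, and from 7.10 to 8.16 in the newborns with a median of 7.52, and fell by 1.70 ± 0.14 (adjusted p = 1.87e-11). NAP1L1, a chaperone of H2A and H2B, fell by 1.25 ± 0.14 (adjusted p = 5.8e-09) on 4 of 4 probe-sets, the demethylase KDM1A fell by 0.76 ± 0.07 (adjusted p = 5.04e-11) and the acetyltransferase KAT8 fell by 0.77 ± 0.10 (adjusted p = 1.03e-07). SUV39H2, a histone methyltransferase, rose by 0.39 ± 0.14 (adjusted p = 0.0217) and did not pass with the actin ratio as a covariate (adjusted p = 0.0525, limma). The high mobility group protein HMGB2 fell by 1.45 ± 0.18 (adjusted p = 3.88e-08), whereas HMGB1 was at 0.13 ± 0.10 (adjusted p = 0.335). Among the histones themselves HIST1H2BD rose by 2.00 ± 0.22 (adjusted p = 4.86e-09), from 7.90, 8.87 and 9.74 (lowest, median and highest fetus) to 9.67, 10.95 and 12.05 in the newborns, and H2AFZ, the variant H2A.Z, by 0.55 ± 0.14 (adjusted p = 0.00181), while H3F3A, which encodes the replacement histone H3, fell by 0.66 ± 0.07 (adjusted p = 1.15e-09). The summed erythroid level fell from 14.69 ± 0.50 to 11.47 ± 0.58 (SD, n = 15 each) in the same animals, and its part in the chromatin counts was not tested.

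**Figure D5:**
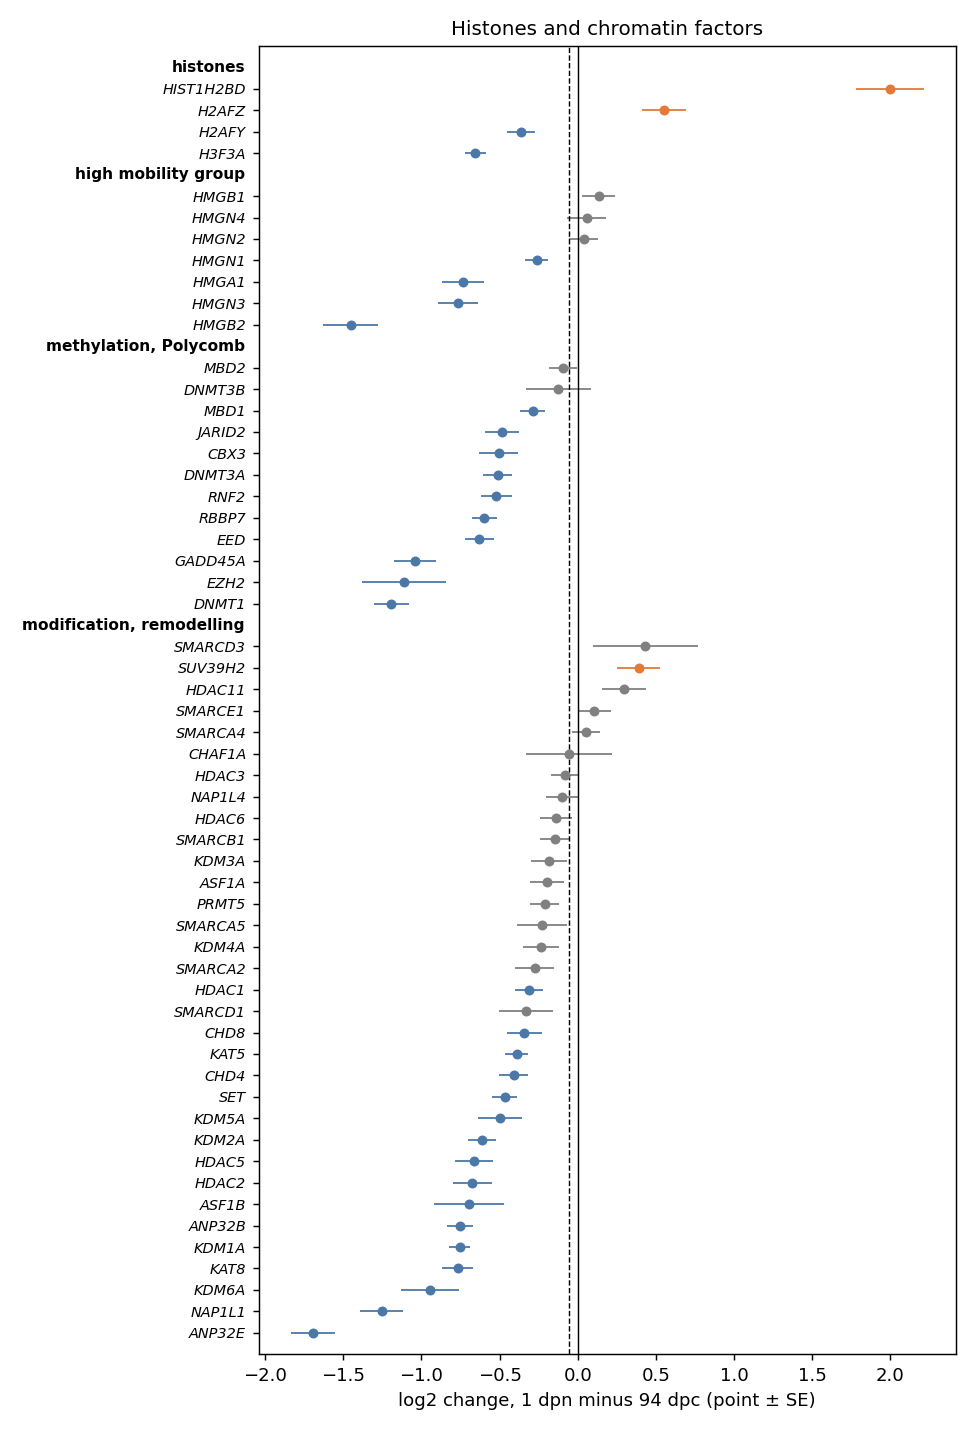
Points give the log2 change from 94 dpc to 1 dpn and bars its SE for the 56 measured histone and chromatin genes by role, orange for rose, blue for fell and grey for an adjusted p of 0.05 or more, with a dashed line at the median of all genes. All 12 points of the DNA methylation and Polycomb group lie left of 0, and HIST1H2BD stands alone at the right.

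Signalling of development fell in part. Of 78 measured genes 30 fell (38.5%) and 9 rose (11.5%), beside 28.5% and 23.2% of all genes. After median centring 19 fell and 12 rose, a setting in which 4062 of all probe-sets fell and 5213 rose. HES1, the target of Notch, was at 9.28 to 11.54 before birth (median 10.09) against 7.02 to 9.01 after it (median 8.53) and fell by 1.89 ± 0.21 (adjusted p = 8.98e-09). The Notch ligand JAG1 and the Notch cofactor RBPJ also fell (-0.73 ± 0.14 and -0.64 ± 0.16). In the Wnt family 5 of 13 fell and 0 rose: the secreted inhibitor SFRP1 fell by 1.54 ± 0.16 (adjusted p = 1.66e-09), the receptor FZD5 fell by 0.73 ± 0.11 (adjusted p = 2.69e-06) and the factor LEF1 fell by 0.91 ± 0.21 (adjusted p = 0.000577), which did not pass with the actin ratio as a covariate (adjusted p = 0.123, limma). In the TGF-beta and BMP family 11 of 28 fell and 4 rose, or 6 and 6 after median centring. SMAD4, shared by both arms, fell by 0.78 ± 0.08 (adjusted p = 2.77e-09) without overlap, the receptor TGFBR1 fell by 0.83 ± 0.16 (adjusted p = 9.41e-05) on 1 of 3 probe-sets and the activin antagonist FST fell by 0.94 ± 0.20 (adjusted p = 0.000269), while the endothelial coreceptor ENG rose by 0.67 ± 0.08 (adjusted p = 6.91e-08) without overlap. KLF10, an early TGF-beta response factor, ran from 11.36 to 12.82 in the fetuses with a median of 12.20, and from 9.95 to 10.95 in the newborns with a median of 10.36, and fell by 1.77 ± 0.15 (adjusted p = 1.31e-11).

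Among growth factors and receptor kinases 9 of 27 fell (33.3%) and 4 rose (14.8%), beside 28.5% and 23.2% of all genes. Their median of -0.13 turned to 0.04 after median centring. EGFR, the main growth factor receptor of hepatocytes, rose by 0.94 ± 0.10 (adjusted p = 7.61e-09) from 9.50, 9.97 and 10.25 in the lowest, median and highest fetus to 10.47, 10.81 and 11.57 in the newborns. EPOR, the erythropoietin receptor, was at 8.19 to 9.65 before birth (median 9.02) against 6.29 to 7.73 after it (median 7.49) and fell by 1.59 ± 0.14 (adjusted p = 5.58e-11). Its ligand EPO was near background in the fetuses and between 4.33 and 9.06 in the newborns, a rise of at least 1.32 ± 0.41 (adjusted p = 0.0101) that did not pass with the actin ratio as a covariate (adjusted p = 0.148). Fetal growth regulators counted 7 that fell and 1 that rose of 12, among them the growth factor MDK (-1.26 ± 0.18, adjusted p = 6.41e-07), the proteoglycan GPC3 (-1.20 ± 0.21, adjusted p = 2.77e-05) and the imprinted noncoding RNA MEG3, which fell by 1.09 ± 0.26, a lower limit, on 1 of 2 probe-sets.

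In the list of growth arrest and cell cycle genes 11 of 21 fell and 4 rose. CCNG1, a p53 target, ran from 11.41 to 12.30 in the fetuses with a median of 11.77, and from 9.42 to 11.12 in the newborns with a median of 10.49, and fell by 1.38 ± 0.14 (adjusted p = 1.41e-09). TXNIP, the glucose-induced brake on thioredoxin, fell by 1.17 ± 0.13 (adjusted p = 1.36e-08), BTG1 fell by 1.04 ± 0.11 (adjusted p = 2.6e-09), GADD45A fell by 1.04 ± 0.13 (adjusted p = 9.52e-08) and GADD45G fell by 1.70 ± 0.36 (adjusted p = 0.0003). The antiproliferative BTG2 rose by 0.66 ± 0.22, the kinase inhibitor CDKN1A by 0.53 ± 0.17, and CCND2, a cyclin that drives the cycle, by 0.62 ± 0.11. CDKN1A did not pass with the actin ratio as a covariate (adjusted p = 0.133, limma).

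Receptors of the inflammatory response rose more often than they fell. Of 27 cytokine and Toll-like receptors and their partners 12 rose and 2 fell, with a median change of 0.34. The kinases, STAT, SOCS and NF-kappaB genes that act behind them had no such lean: 6 of 22 rose and 5 fell, with a median change of -0.01. In the list of basic leucine zipper and related transcription factors, which holds CEBPD, 6 of 26 rose and 7 fell. STAT3, the factor that carries interleukin-6 signals, ran from 9.80 to 10.24 in the fetuses with a median of 10.00, and from 11.21 to 12.14 in the newborns with a median of 11.65. It rose by 1.64 ± 0.09 (adjusted p = 4.73e-16), and the gap between the highest fetus and the lowest newborn was wider than the range of either stage. CEBPD, a partner of STAT3 on acute phase genes, was at 10.25 to 11.13 before birth (median 10.53) against 10.78 to 12.90 after it (median 11.97) and rose by 1.43 ± 0.16 (adjusted p = 7.87e-09). Of the inhibitors of NF-kappaB, NFKBIB rose by 1.54 ± 0.22 (adjusted p = 8.56e-07) and NFKBIA by 0.47 ± 0.13 (adjusted p = 0.0037). TLR2, a receptor for bacterial lipoproteins, rose by 1.23 ± 0.24 (adjusted p = 8.66e-05) and the cytokine IL18 by 0.89 ± 0.13 (adjusted p = 1.29e-06), whereas the kinases TYK2 and JAK2 fell (-0.90 ± 0.08 and -0.59 ± 0.18). JAK2 did not pass after quantile normalization (adjusted p = 0.0521, limma) or median centring (adjusted p = 0.0677, limma), and NFKBIA not with the actin ratio as a covariate (adjusted p = 0.0878, limma). In the same animals 5 of 8 macrophage and Kupffer cell markers rose and 1 fell, their summed level being 14.20 ± 0.15 before birth and 14.90 ± 0.15 after it (SD, n = 15 each), and its part in these rises was not tested.

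Export pumps and proton pump subunits mostly rose. Of 12 ATP-binding cassette transporters 8 rose and 1 fell, with a median change of 0.68. ABCB1, the multidrug pump P-glycoprotein, was at 8.15 to 9.37 before birth (median 8.91) against 9.09 to 11.50 after it (median 10.58) and rose by 1.62 ± 0.16 (adjusted p = 5.9e-10). ABCC2, which exports bilirubin conjugates into bile, rose by 0.81 ± 0.10 (adjusted p = 8.84e-08), and ABCG8, which exports sterols, by 0.96 ± 0.12 (adjusted p = 6.33e-08). ABCB6, a mitochondrial porphyrin carrier, fell by 0.93 ± 0.12 (adjusted p = 1.43e-07) without overlap. Of 13 subunits of the vacuolar proton pump 8 rose and 2 fell. TCIRG1, a membrane subunit, was at 6.89 to 8.61 before birth (median 8.11) against 8.95 to 10.08 after it (median 9.62) and rose by 1.51 ± 0.14 (adjusted p = 2.48e-10), and ATP6V0D1 rose by 1.10 ± 0.09 (adjusted p = 1.89e-11) although its other probe-set fell. SMPD1, the acid sphingomyelinase of lysosomes, ran from 8.30 to 9.21 in the fetuses with a median of 8.97, and from 10.04 to 11.18 in the newborns with a median of 10.64 and rose by 1.69 ± 0.11 (adjusted p = 1.07e-13), and in its family of 9 sphingolipid genes 6 rose and 0 fell. ATP2A2, the calcium pump of the endoplasmic reticulum, varied widely between animals, at 6.58 to 10.92 before birth (median 9.51) against 6.82 to 12.82 after it (median 12.00), with a rise of 2.22 ± 0.51 (adjusted p = 0.000697).

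Of 31 apoptosis genes 11 rose and 3 fell. CIDEB, which hepatocytes use to load lipoproteins, rose by 1.36 ± 0.10 (adjusted p = 1.67e-12), the adaptor FADD by 1.12 ± 0.11 (adjusted p = 5.42e-10) and AIFM1, which also assembles the respiratory chain, by 1.06 ± 0.09 (adjusted p = 1.63e-11), all without overlap. BNIP3L, which removes mitochondria from maturing red cells, was at 10.94 to 12.43 before birth (median 11.62) against 8.65 to 10.63 after it (median 9.78) and fell by 1.84 ± 0.16 (adjusted p = 4.66e-11). Among genes of mitochondrial fusion, fission and inner membrane shape 6 of 10 rose and 1 fell. Among those of mitochondrial import 9 of 23 rose and 6 fell, with a median change of 0.06. CHCHD3 rose by 0.85 ± 0.09 (adjusted p = 2.59e-09) and the mitochondrial protease LONP1 by 0.68 ± 0.09 (adjusted p = 9.1e-08), without overlap in either.

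Genes of RNA decay and small RNAs fell in 16 of 31 cases and rose in 4, or 9 and 6 after median centring. The poly(A)-binding protein PABPC1 ran from 14.45 to 14.75 in the fetuses with a median of 14.56, and from 13.19 to 13.89 in the newborns with a median of 13.49, and fell by 1.08 ± 0.07 (adjusted p = 1.22e-13). PABPC4 was at 12.34 to 12.72 before birth (median 12.52) against 10.40 to 11.82 after it (median 11.03) and fell by 1.42 ± 0.11 (adjusted p = 1.36e-12). Both left a gap between stages. Of 32 genes for ubiquitin and its conjugation 10 rose and 13 fell. The ubiquitin-like modifiers NEDD8 and UFM1 and the NEDD8-conjugating enzyme UBE2M rose without overlap (0.61 ± 0.07, 1.05 ± 0.12 and 1.14 ± 0.11), and UBE2B, UBE2E2, UBE2E3 and the SUMO-activating UBA2 fell without overlap (-0.88 ± 0.10, -0.82 ± 0.09, -0.77 ± 0.08 and -0.88 ± 0.12).

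Of 82 cytoskeletal genes 18 rose (22.0%) and 23 fell (28.0%), close to the 23.2% and 28.5% of all genes. TAGLN2, an actin-bundling transgelin, rose by 1.32 ± 0.10 (adjusted p = 2.65e-12), and PFN2, a profilin, ran from 12.59 to 13.03 in the fetuses with a median of 12.83, and from 10.50 to 11.98 in the newborns with a median of 11.41 and fell by 1.48 ± 0.12 (adjusted p = 7.44e-12). The lamins separated, as LMNA rose by 0.82 ± 0.08 (adjusted p = 3.68e-10) without overlap and LMNB1 fell by 0.55 ± 0.15 (adjusted p = 0.00419). KRT18, a keratin of hepatocytes, rose by 1.07 ± 0.12 (adjusted p = 4.58e-09), and its partner KRT8 by 0.35 ± 0.11 (adjusted p = 0.0113), which did not pass after quantile normalization (adjusted p = 0.137, limma). Cell junction genes were likewise close to these shares, as 12 of 44 rose (27.3%) and 13 fell (29.5%). At cell contacts the gap junction protein GJB1 of hepatocytes rose by 0.95 ± 0.10 (adjusted p = 1.43e-09) without overlap and CLDN12 by 1.63 ± 0.19 (adjusted p = 1.15e-08), while the desmosomal DSP fell by 1.13 ± 0.12 (adjusted p = 2.15e-09). Among 10 S100 proteins 3 rose and 5 fell. S100G, the small calcium-binding calbindin of gut and placenta, was bright at both stages, at 14.51 to 15.47 before birth (median 14.92) against 11.48 to 15.59 after it (median 14.12), with a change of -0.96 ± 0.28 (adjusted p = 0.00643), and its mean was 5.71 ± 1.70 (SD, n = 14) at 28 dpn. The change of S100G did not pass with the actin ratio as a covariate (adjusted p = 0.0545, limma).

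For tRNA synthetases 3 of 24 rose and 7 fell, with a median change of 0.01, for RAB proteins 4 of 23 rose and 5 fell, and for glycosylation enzymes 14 of 45 rose and 15 fell. The largest changes in these families were of RAB members at up to 1.38 and of precursor-assembly enzymes at up to 1.60. Peroxins and peroxisome membrane proteins counted 3 that rose and 4 that fell of 11, with changes between -0.66 and 0.84.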

How the data were processed

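RNA of the whole liver was hybridized to 1 array per animal. The deposited intensities were linear values that the authors' software made per probe-set, and GCOS 1.1.1 stands in the submitters' processing notes; their trimmed mean, with 2% of values left out at each end, was close to 500 on every array. The tests of the study itself were run on GCRMA values with sex, mother and weight in the model, which were not used here.

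The intensities were changed to log2(intensity + 16), and 1 dpn was compared with 94 dpc over 23999 probe-sets with limma 3.58.1 in R 4.3.3 (two-sided, Benjamini-Hochberg adjustment over all probe-sets, called below 0.05). The fit was tested on simulated data. Control ratios were compared by permutation tests (100000 permutations, two-sided, scipy 1.17.1). Of the probe-sets 10069 had 1 gene in the platform annotation, 198 several and 13732 none; 9961 identifiers matched RefSeq Sscrofa11.1. The probe-set of highest mean over the 60 arrays stood for each of 6765 genes.

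Families were 31 lists with 72 roles, with 1127 genes measured. The members and lists were chosen with earlier results of these data known. Genes were named from the 40 largest rises and falls without overlap, the largest changes and the brightest unchanged genes of each role, all members of small roles, transcripts switched on or off, probe-sets in conflict and cell type markers. The number of arrays limits the precision. Sibs were counted as independent, since litter, sex and weight could not be modelled, and p-values measure only the spread between these animals. Offsets, normalizations, a filter, the variance prior, the arrays in the fit, control ratios as covariates and the choice of probe-set were varied.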

Additional observations from a re-analysis of the deposited data

How the results depend on the processing

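Of the genes named that passed the test, EPO alone changed direction in a refit, to -0.2352 with the GAPDH ratio as a covariate, and TGFBR1 stood at 0.0112 as the median over its probe-sets. The sign of DNMT3B, HMGB1, ODC1 and UGP2, which did not pass, depended on the setting. With the GAPDH ratio, which does not overlap between stages, 61 of the 170 genes named no longer passed, EPO among them. The losses with this ratio are not marked where the genes are named above. In that setting 726 probe-sets rose and 991 fell, against 3431 and 6127 without the ratio. Falls of at least 2-fold numbered 747, against 1244. With the actin ratio 9 no longer passed: CDKN1A, EPO, KRT8, LEF1, MAT1A, MAT2A, NFKBIA, S100G and SUV39H2. Calls of JAK2, KRT8 and MAT1A were lost after quantile normalization, that of JAK2 also after median centring, where HMGB1 passed, and that of PMM2 with all 60 arrays in the fit. Median centring gave 5213 probe-sets that rose, 4062 that fell, 785 that fell by at least 2-fold and 381 that fell without overlap. With an offset of 64, 715 fell by at least 2-fold. The cause was not tested. Signal over background limits the size of changes that start or end near it. No paired analysis was possible because the fetuses and the newborns came from separate experiments.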

Other observations

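The largest rise of all probe-sets had no gene name. It ran from 4.26 to 6.72 in the fetuses and from 13.80 to 15.32 in the newborns, a rise of at least 9.17 ± 0.26 from a stage at background (adjusted p = 1.17e-22, limma). The next unnamed probe-set rose by 5.42 ± 0.43 (adjusted p = 7.77e-12, limma). The largest unnamed falls were changes of -3.78 ± 0.19 and -3.66 ± 0.28, and both ended at background, so that these are lower limits of size.

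Probe-sets of a gene did not always move together. Among 702 genes with at least 2 changed probe-sets, 579 had all of them on the same side (82.5%) and 123 on both. For B2M, the light chain of MHC class I, 3 probe-sets fell, the most by 1.26 ± 0.15, and 2 rose, the most by 1.02 ± 0.11. For ACO1, which binds RNA of iron genes when iron is low, the brightest probe-set changed by -0.77 ± 0.13 and the others by 0.57 ± 0.09 and 1.10 ± 0.11. VEGFA, the endothelial growth factor, changed by -1.30 ± 0.09 without overlap on 1 probe-set and by 0.69 ± 0.12 on another. No direction is given for these genes.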
